A study of Mus musculus with 8 samples.

Results

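The oligoadenylate synthetase (OAS) genes of the mouse were examined in 4 fibrosarcoma cell lines: Oas1a, Oas1b, Oas1c, Oas1g, Oas2, Oas3, Oasl1 and Oasl2. They were chosen by gene name as the members of this family with a row in the deposited count table, and made up 8 of its 18768 genes. This choice was made with earlier results of these data known. All 8 passed the filter on low counts, as did 15153 genes of the table. RNA-Seq had been done on cultured cells of the lines MC010 and MC011, labelled IRF8 KO, and MC654 and MC659, labelled WT, with 2 libraries per line and 74063616 to 116206078 counts per library. The tumors were raised in Irf8 knock-out mice and in wild-type C57BL/6 mice, all given the carcinogen methylcholanthrene (MCA) under the skin, and the cells were passaged in culture before use, without any interferon treatment named in the labels. Each genotype is therefore represented by 2 lines, and a difference between the labels cannot be told apart from a difference between these lines that has nothing to do with Irf8. The ages of the mice are not given in the sources used here, and nothing says whether the libraries of a line came from separate cultures, so p-values measure the spread between these libraries.

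OAS proteins sense double-stranded RNA, a sign of viral infection. When bound to it, the catalytic members join ATP into short chains of 2'-5' linked adenosine (2-5A), and 2-5A acts as a second messenger of the antiviral response. Most OAS genes are induced by interferon, through transcription factors, STAT2 and IRF9 among them, that bind a DNA element with repeated GAAA. IRF8, the factor that the knock-out mice lack, belongs to the same family as IRF9 and binds related elements.

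The upstream sequences of the 4 members that hold such a repeat are shown first, because this repeat is the element through which interferon is known to act on these genes. The 120 bases before each start are from RefSeq (GRCm38.p6), on the strand of the gene, 5′ to 3′, and capitals mark matches to GAAANNGAAA on either strand, with overlapping matches run together. The windows lie at chr5:120907526-120907645 (Oas1a), chr5:120887614-120887733 (Oas1g), chr5:120812515-120812634 (Oas1c) and chr5:120777660-120777779 (Oas3), all on the minus strand.
Oas1a: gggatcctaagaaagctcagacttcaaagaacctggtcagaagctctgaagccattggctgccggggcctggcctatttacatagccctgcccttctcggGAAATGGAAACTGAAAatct
Oas1g: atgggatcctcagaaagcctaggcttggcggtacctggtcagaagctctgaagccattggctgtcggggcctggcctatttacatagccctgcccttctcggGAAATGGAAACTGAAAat
Oas1c: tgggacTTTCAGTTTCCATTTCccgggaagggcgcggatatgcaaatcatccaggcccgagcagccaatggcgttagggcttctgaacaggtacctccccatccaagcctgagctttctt
Oas3: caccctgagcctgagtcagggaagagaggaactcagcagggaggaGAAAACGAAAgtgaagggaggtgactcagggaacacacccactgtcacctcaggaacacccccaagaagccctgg

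Oas1a and Oas1g carried the same 16-letter stretch, which holds 2 overlapping matches and lay within 20 bases of each start. Oas1c carried its matches on the other strand, upstream of its own start on the far side of the window. Oas1b is transcribed away from Oas1c, with 120 bases between their annotated ends, so the same letters lay 22 to 7 bases before the annotated start of Oas1b. Of the 6 members with a window in the table (250 bases before to 50 after the start), 4 held a match and Oasl1 and Oasl2 did not. Of all genes with a window, 3.99% held one, and of all windows 3.44%. Oas1b and Oas2 had no window of their own. A match is a description of letters, and binding was not measured.

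RNA of the targeted gene itself ran opposite to the labels. Irf8 was called higher under the label IRF8 KO (log2 fold change 7.44, SE 1.49, adjusted p = 0.00570). Every SE here is the size of the log2 fold change divided by the square root of the test's F statistic. It is an approximation, least reliable where counts are few. Irf8 had 442 and 347 counts in the MC010 libraries, 32 and 10 in MC011, 1 and 2 in MC654 and 1 and 0 in MC659. The counts do not say which exons the reads came from, so they do not check the deletion, and the lines are named here by their labels. Log2 CPM (counts scaled to library size) correlated at 0.991 to 0.992 between libraries of a line, 0.933 to 0.987 between lines of a label and 0.897 to 0.917 between labels, described over genes. As to other cell types, the 6 fibroblast or sarcoma markers summed to 7443 to 9236 CPM in the libraries labelled IRF8 KO and to 6602 to 8029 CPM in those labelled WT, with 1 of 6 called higher (Thy1). Of 8 hematopoietic markers, 4 had a row, with sums of 5.72 to 7.38 and 9.67 to 11.4 CPM, and Csf1r was called lower under the label IRF8 KO. The pan-leukocyte marker Ptprc had 18 and 13 counts in MC010 and 0 to 2 in the other libraries. The 3 endothelial markers summed to 0.135 to 0.789 and 0.442 to 0.624 CPM. The 3 epithelial markers summed to 2.30 to 293.8 and 19.8 to 39.4 CPM. The sum in MC010 was nearly all Krt8 (284 CPM, against 1.29 in MC011), while Epcam and Cdh1 were higher in MC011 than in MC010 by mean CPM (0.995 against 0.340, and 0.311 against 0.00874). Epcam was called higher under the label IRF8 KO (2.20, adjusted p = 0.00858). The part of these markers in the results was not tested. In bulk samples, fewer cells of a type and less RNA per cell cannot be told apart.

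All 8 OAS genes were lower in MC010 and MC011 than in MC654 and MC659, and the libraries of the 2 labels did not overlap for any of them. A call here means an adjusted p (edgeR's quasi-likelihood test, Benjamini-Hochberg) under 0.05 with a log2 fold change over 0.59 in size. Among all genes tested, 8.72% were called lower in this comparison and 13.7% higher. In the same way, 20.5% of all genes had all 4 libraries labelled IRF8 KO below all 4 labelled WT, and 22.1% had them above. The members were chosen with earlier results of these data known, so these shares are no test of the family. Oas1a, Oas1g and Oas2 passed the filter on low counts only through the libraries labelled WT, where they were high. The median log2 fold change was -4.12 over the 8 members and 0.02 over all genes tested. The fit treats the 4 libraries of a label as separate samples although they come from 2 lines. With the counts summed per line, so that n = 2 lines per label, no gene of the table was called. The adjusted p of the members then ran from 0.0513 (Oas1a) to 0.254 (Oasl2), and all their fold changes kept their direction. An exact permutation test cannot go below p = 0.0286 with 4 libraries per label, or below 0.333 with 2 lines.

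**Figure D1:**
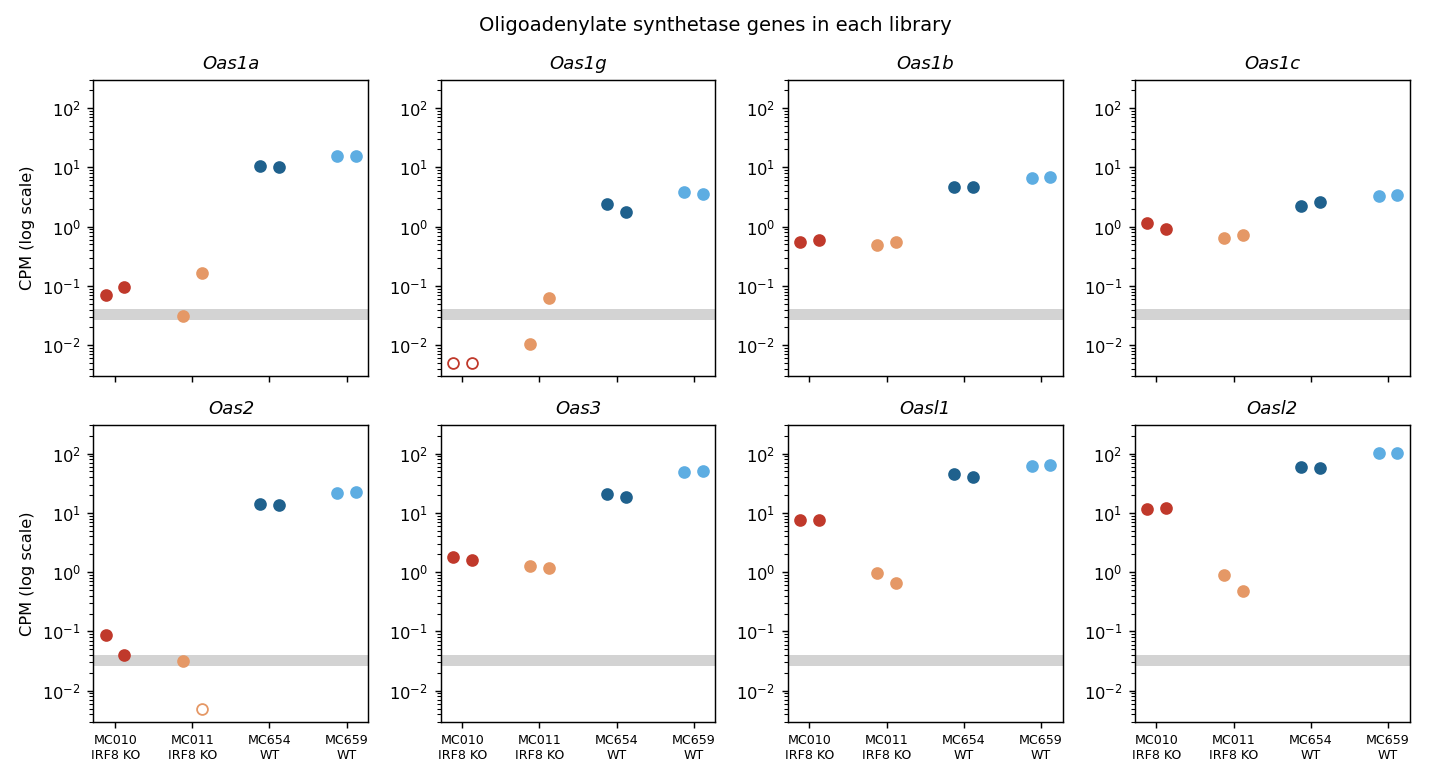
CPM of each OAS gene in the 8 libraries, on a log scale, 1 point per library. Open circles at the bottom are libraries with 0 counts, and the grey band is the value of 3 counts (0.0262 to 0.0408 CPM). Each OAS gene was lower in the MC010 and MC011 libraries than in every MC654 and MC659 library.

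Oas2 and Oas1a, which make 2-5A, were well expressed in MC654 and MC659 and near the limit of detection in MC010 and MC011. Oas2 lies on the minus strand (chr5:120730333-120749853 of mm10, as do all coordinates of genes below) and had 10 and 3 counts in MC010, 3 and 0 in MC011, 1164 and 1134 in MC654 and 1938 and 2003 in MC659. This is 0.0398 ± 0.0362 CPM (SD, n = 4) under the label IRF8 KO and 17.9 ± 4.90 CPM (SD, n = 4) under WT. The MC010 and MC011 libraries were thus close to the floor of 3 counts, and the MC654 and MC659 libraries far above it. The log2 fold change was -8.67 (SE 0.63, adjusted p = 5.07e-05). From summed counts, MC011 was 798-fold lower than MC654 (exact 95% interval 273 to 3871) and 1293-fold lower than MC659 (442 to 6273). MC010 was 197-fold (115 to 371) and 320-fold (187 to 601) lower. These intervals cover counting error only.

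Oas1a (chr5:120896256-120907521) had 8 and 7 counts in MC010, 3 and 13 in MC011, 886 and 854 in MC654 and 1384 and 1414 in MC659, or 0.0902 ± 0.0561 against 13.0 ± 3.11 CPM (SD, n = 4 each). The log2 fold change was -7.18 (SE 0.48, adjusted p = 3.35e-05). Its neighbor and close copy Oas1g (chr5:120876142-120887613) had 0 and 0, 1 and 5, 200 and 149, and 335 and 323 counts in the same order. Against MC010, where both libraries were at 0, only a bound can be given: MC010 was at least 50.8-fold lower than MC654 and at least 90.5-fold lower than MC659, with 3 counts per library as the floor, taken in the shallower MC010 library (0.0408 CPM). MC011 was 60.6-fold (27.6 to 166) and 108-fold (49.3 to 295) lower. The label comparison of Oas1g gave an adjusted p of 0.000518. Reads from this pair are hard to tell apart, since 57.6% of the 50-base words of Oas1a transcripts were also in transcripts of another gene, with Oas1g sharing the most, and 45.7% of those of Oas1g were also in another gene, with Oas1a sharing the most. The split of counts between the pair is therefore uncertain, and both genes were lower together.

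Oas1b and Oas1c lie between Oas3 and Oas1g. Oas1b, known for its role in flavivirus resistance of mice and annotated as a polymorphic pseudogene, had 63 and 44 counts in MC010, 47 and 44 in MC011, 389 and 401 in MC654 and 572 and 621 in MC659. The means were 0.549 ± 0.0459 and 5.69 ± 1.17 CPM (SD, n = 4 each), a log2 fold change of -3.37 (SE 0.21, adjusted p = 2.03e-05). Oas1c had 131 and 67, 63 and 58, 189 and 222, and 286 and 305 counts, and gave the smallest change of the family at -1.74 (SE 0.25, adjusted p = 0.00112). Of Oas1c's 2405 exon bases, 227 overlap an antisense gene, Gm43069, and the strand setting of the counting is not given in the sources used here. Its libraries labelled IRF8 KO held 0.653 to 1.15 CPM, far above the value of 3 counts.

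Oas3 (chr5:120753098-120777661), encodes the longest OAS protein, which makes 2-5A. It had 207 and 119 counts in MC010, 121 and 93 in MC011, 1734 and 1567 in MC654 and 4272 and 4546 in MC659, with means of 1.47 ± 0.300 and 34.5 ± 17.3 CPM (SD, n = 4 each). The log2 fold change was -4.56 (SE 0.42, adjusted p = 0.000144). The libraries labelled WT fell in separate pairs by line, MC659 being above MC654.

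The OAS-like genes Oasl1 and Oasl2 form a separate pair 5792 kb from the Oas1, Oas2 and Oas3 genes, at chr5:114923240-114937915 and chr5:114896936-114912234. OASL1 makes no 2-5A and is known to hold back translation of Irf7 mRNA, whereas OASL2 has enzyme activity. Oasl1 was measured at 7.44 and 7.70 CPM in MC010, 0.965 and 0.658 in MC011, 44.4 and 40.4 in MC654 and 61.6 and 63.0 in MC659. Oasl2 was measured at 11.5 and 12.1, 0.892 and 0.481, 58.2 and 57.1, and 102 and 104 CPM. Within the label IRF8 KO, MC010 had several CPM of each and MC011 was below 1. The log2 fold changes were -3.64 (SE 0.81, adjusted p = 0.00936) and -3.69 (SE 1.00, adjusted p = 0.0211). The call of Oasl2 was lost without either MC659 library (adjusted p = 0.0513 and 0.0508), and both calls were lost with line MC654 or line MC659 left out.

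Per length, the OAS-like pair took most of the family's RNA in 3 of the 4 lines. Levels are CPM per kilobase of exon, the only scale on which genes are compared here. Oasl1 and Oasl2 together made up 82.4% of the summed level in MC010, 34.5% in MC011, 61.9% in MC654 and 60.1% in MC659. The sum over the family was 5.77 in MC010, 1.21 in MC011, 40.9 in MC654 and 66.7 in MC659. Oasl1 was the first member in each line by exon length (2.90, 0.311, 16.2 and 23.9), although its order with Oasl2 turned in MC010 and MC659 when the longest transcript was used as length. Oas1a was the third in the lines labelled WT (5.48 and 8.33) and the sixth in MC010 and MC011 (0.0438 and 0.0519), where Oas1c and Oas1b stood above it. With the longest transcript as length, Oas1a (8.33) came below Oas3 (10.5) in MC659. The levels of Oas1a and Oas1g per length, and their ranks, are uncertain because their transcripts share much of their sequence.

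**Figure D2:**
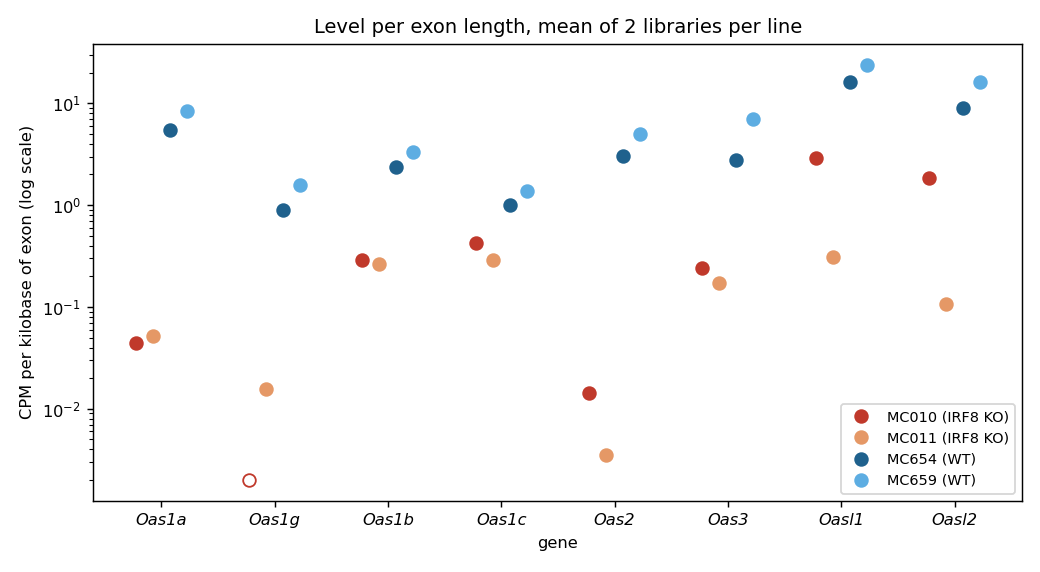
Level of each OAS gene per kilobase of exon in each line, on a log scale, as the mean of 2 libraries. The open circle is Oas1g in MC010, with 0 counts. By this length Oasl1 was the highest gene in each of the 4 lines, which turned in MC010 and MC659 with the longest transcript as length, and Oas1a, Oas1g and Oas2 were the lowest 3 in both lines labelled IRF8 KO.

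Each of the 4 comparisons across the labels, line by line, called all 8 OAS genes lower. Among all genes tested, 16.3% were called lower in MC010 than in MC654, 17.7% lower in MC010 than in MC659, 12.4% lower in MC011 than in MC654 and 13.7% lower in MC011 than in MC659. None of the 8 was called higher, where 19.6%, 19.1%, 17.2% and 16.6% of all genes were, in the same order. These comparisons share libraries and are not independent of each other.

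Within the label IRF8 KO, the family divided. Oasl1 and Oasl2 were higher in MC010 than in MC011, by 3.19 (SE 0.13, adjusted p = 7.54e-12) and 4.06 (SE 0.14, adjusted p = 9.98e-13) on the log2 scale. Oas2 was called higher too (1.93, SE 0.80, adjusted p = 0.0475), but on 13 summed counts against 3. Oas1g was called lower (adjusted p = 0.0301) on 0 counts against 6, too few for a fold change. The other 4 were not called, with differences of -0.19 (SE 0.60) for Oas1a, 0.14 (SE 0.22) for Oas1b, 0.59 (SE 0.22) for Oas1c and 0.50 (SE 0.14, adjusted p = 0.00448) for Oas3, which was short of the fold. Among all genes, 15.7% were called higher and 16.0% lower in MC010. Without replicate 1 of MC010, or without replicate 2 of MC011, 2 members were called in place of 4.

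Within the label WT, all 8 had a lower value in MC654 than in MC659 and 5 were called: Oas1a, Oas1g, Oas2, Oas3 and Oasl2. The largest difference was that of Oas3, at -1.34 (SE 0.08, adjusted p = 2.01e-08), and the others ran from -0.60 to -0.84. Oas1b, Oas1c and Oasl1 were not called, with -0.51, -0.44 and -0.56. Of all genes, 3.71% were called lower in MC654. Leaving out MC654 replicate 2, or either MC659 library, left 3 members called.

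The order MC659, MC654, MC010, MC011 from high to low held for 6 of the 8 members, as against 6.59% of all genes tested. It also held for 11 of 12 other interferon-induced genes, 6 of 8 other double-stranded RNA proteins and 1 of 6 fibroblast or sarcoma markers. The order was read from the members' own line means, so its count is a description and no test. Part of it repeats the label difference, since all 8 members had every library labelled IRF8 KO below every library labelled WT. So did 20.5% of all genes tested. Oas1a and Oas1g departed from the order, with MC011 above MC010 at a few counts. Between MC654 and the next line down, every member differed past the threshold. Within a label, several steps of the order did not, as for Oas1b between MC010 and MC011 (0.14, adjusted p = 0.607). Described over the 8 libraries, log2 CPM of the members correlated in pairs from 0.692 (Oas1g with Oasl2) to 0.997 (Oasl1 with Oasl2), and these points share their lines.

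**Figure D3:**
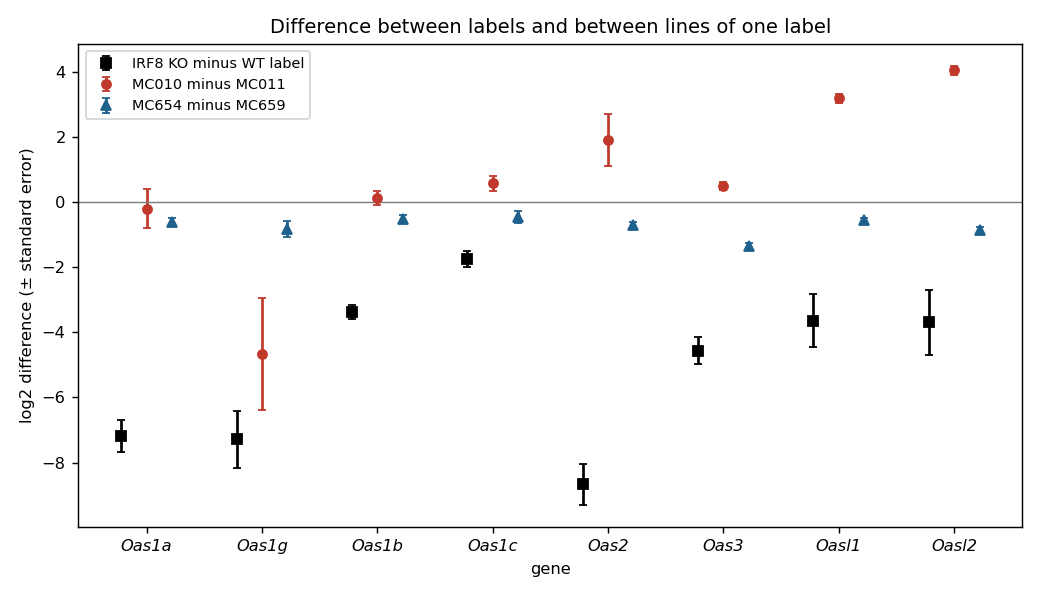
Log2 difference with approximate standard error for each OAS gene, between the labels (squares), between MC010 and MC011 (circles) and between MC654 and MC659 (triangles). The label differences of all 8 OAS genes lie below 0, and only Oasl1 and Oasl2 differ by more than 3 upward between MC010 and MC011. The value of Oas1g between MC010 and MC011 rests on 0 and 6 counts and depends on the fit.

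Of 3 genes around the turnover and use of 2-5A, none was called between the labels: Pde12, a phosphodiesterase that degrades 2-5A (-0.52), Abce1, which is best known for recycling ribosomes (-0.29), and Akap7 (-0.31), whose protein has a 2'-5' phosphodiesterase domain.

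Of 8 other proteins that bind or answer to double-stranded RNA, 5 were called lower under the label IRF8 KO and none higher, with a median log2 fold change of -1.30. The cytoplasmic sensors Ifih1 (MDA5) and Ddx58 (RIG-I) changed by -3.15 and -2.13, Dhx58 by -1.87, Zbp1 by -3.12 and the RNA editing enzyme Adar by -0.64. Eif2ak2, the kinase PKR, missed the threshold (-0.72, adjusted p = 0.0604), as did Tlr3 (-0.50) and the adaptor Mavs (-0.11). The background for these counts is the 8.72% called lower and the 13.7% called higher among all genes.

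Of 10 genes that carry the interferon signal, 5 were lower and none higher, with a median of -0.43. Irf7, which amplifies the response, changed most (-3.87). Stat2 and Irf9, which act on the OAS promoters, changed by -1.36 and -1.37. Irf1 and Irf3 were also called lower (-0.74 and -0.76). The receptor chains Ifnar1 and Ifnar2 (0.48 and 0.37), the kinases Jak1 and Tyk2 (-0.11 and -0.03), and Irf2 (0.24) were not called. All 12 of 12 other interferon-induced genes were called lower, from -0.89 for Ifit2 to -6.18 for Ifi44, with a median of -3.92. For both lists the background is the 8.72% called lower and the 13.7% called higher among all genes. The antiviral GTPases Mx1 and Mx2 changed by -4.84 and -5.27, the translation inhibitors Ifit1 and Ifit3 by -3.78 and -4.05, and Rsad2 (viperin) by -4.40. The ubiquitin-like modifier Isg15 changed by -2.97 and Usp18, the protease that removes it, by -5.05. Bst2, Rtp4 and Xaf1 changed by -3.23, -3.26 and -2.56. These lists were chosen with results of these data known, so their direction is no independent evidence.

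**Figure D4:**
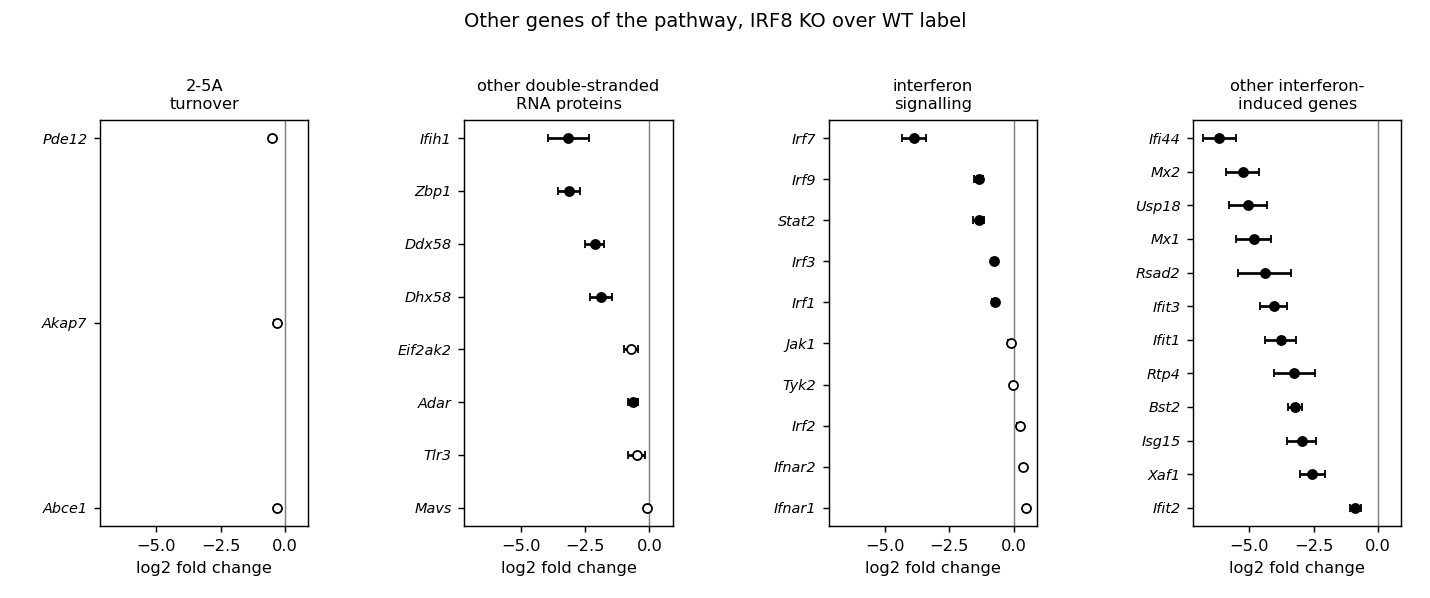
Log2 fold change with approximate standard error (IRF8 KO label over WT label) for the reported genes of 4 lists around the OAS family. Filled circles were called and open circles were not. The 12 other interferon-induced genes lie below 0 and were all called, and no gene shown was called higher. Some genes of the lists are not reported here.

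The genes beside the OAS family are described for each of its 2 stretches of chromosome 5. The 6 Oas1, Oas2 and Oas3 genes span 177 kb (chr5:120730333-120907521). Of 14 tested genes within 500 kb of them, 2 were called lower (Naa25, -0.73, and Trafd1, -0.64) and 2 higher (Sdsl, 4.76, and Slc8b1, 0.97), with a median of -0.19. The Oasl pair spans 41.0 kb (chr5:114896936-114937915). Of 28 tested genes within 500 kb of it, 2 were called lower (Msi1, -1.49, and 2610524H06Rik, -1.09) and none higher, with a median of 0.07. The nearest tested genes were Ddx54 (-0.22) and Ptpn11 (-0.22) on either side of the Oas1, Oas2 and Oas3 genes, and 2210016L21Rik (-0.35) and 2610524H06Rik on either side of the Oasl pair. The called neighbors were named after their values were seen. Of all genes, 8.72% were called lower and 13.7% higher, and whether the neighbors depart from these shares was not tested.

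**Figure D5:**
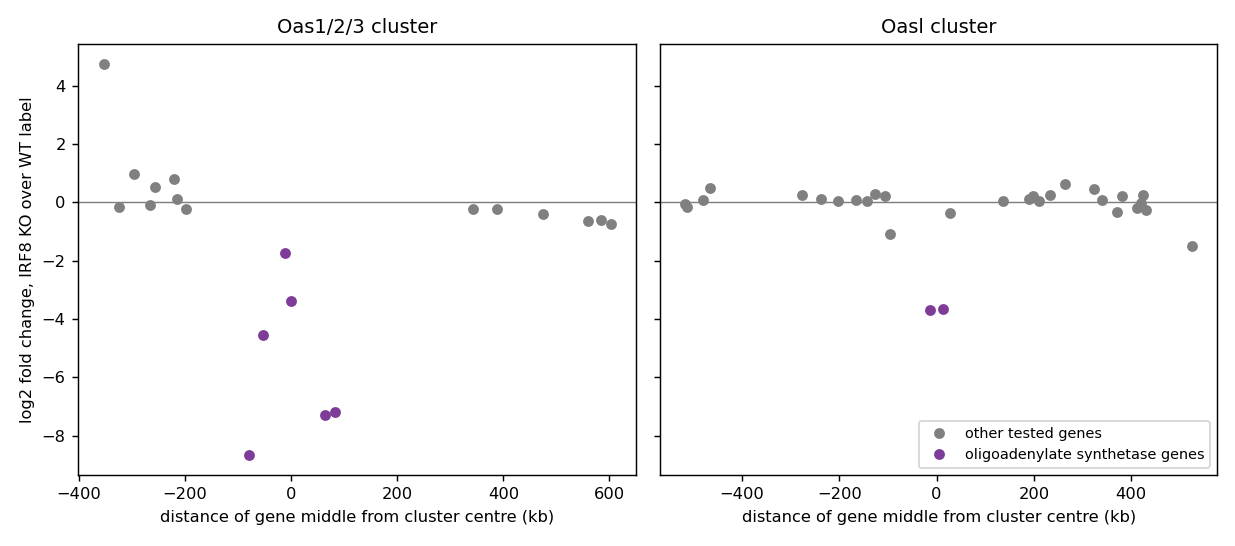
Log2 fold change (IRF8 KO label over WT label) of the OAS genes and of the tested genes within 500 kb, against the distance in kb from the centre of each cluster. The OAS genes lie between -1.74 and -8.67, below all tested neighbors shown, the lowest of which is Msi1 at -1.49.

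The genes whose log2 CPM over the 8 libraries was most like the mean of the family were Bst2 (tetherin, an interferon-induced restriction factor, r = 0.999), Lgals3bp, Tspyl4, Plekha4, Samd9l, Spon2, Cadm4, Tagln, Mical1 and Map9 (r = 0.997 for the tenth), among 10675 genes compared. This likeness is a description over 8 libraries of 4 lines.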

How the data were processed

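Cultured cells of 4 MCA-induced fibrosarcoma lines were sequenced as stranded mRNA libraries, 2 per line. Per the submitters' processing notes, the authors aligned reads to mm10 (GRCm38.p6) with STAR 2.7.3a, counted them per gene with HTSeq 0.11.2 and used DESeq2, and they deposited raw counts per gene. The rows held at least 20 counts in total. The deposited table also holds the authors' normalized signal values and their comparison columns (log2 fold changes, test scores and p-values), which were not used. The counts were tested here with edgeR 4.0.16 (R 4.3.3): filterByExpr, TMM scaling and the robust quasi-likelihood test, once by label and once by line. The tests were checked on simulated counts over repeated draws. A first check on a single draw had exceeded its limit on false calls, and the limits for the repeated draws were set after trial values were seen. The simulated libraries were independent, so this check does not cover the sharing of a line by 2 libraries in the fit by label. Log2 CPM used a prior count of 0.5. DESeq2 1.42.0 and limma 3.58.1 served as alternatives. Replicates of a line differed by more than counting noise. Exons came from GENCODE M21, which held 18736 of the table's genes, 17726 with the same start and end. A value of 3 counts was taken as the floor per library. Members and gene lists were chosen with earlier results of these data known, and the genes named were all members, all genes of the lists except some that are not reported here, the nearest neighbors and the 10 genes most like the family (mean log2 CPM of at least 1). Oas1d, Oas1e, Oas1f, Oas1h and Ifnb1 had no row under these symbols among the deposited counts and could not be tested.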

Additional observations from a re-analysis of the deposited data

Results flagged for a closer look

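Of 16 groups of 4 libraries examined (8 OAS genes, 2 labels), 1 held a library far from the others. Oas1g was at 0.0633 CPM in replicate 2 of MC011, on 5 counts, against 0, 0 and 0.0104 CPM in the other libraries labelled IRF8 KO. Dixon's test, used here, would flag about 1 in 20 such groups if the 4 values were independent. The libraries come in pairs from 2 lines, and this group lies near the floor, so that rate cannot be relied on.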

How the results depend on the processing

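The count of 8 OAS genes lower between the labels stayed within 1.5 times under 19 of 20 alternatives. Among these were DESeq2, upper-quartile scaling, no filter on low counts and limma-voom with line as a random block. The count was 6 with line MC654 or line MC659 left out. The count fell to 0 with counts summed per line, where the spread is estimated from 2 lines per label. Leaving out single libraries gave 7 to 8. Between MC010 and MC011, leaving out single libraries gave 2 to 5 called members (main value 4), and between MC654 and MC659 it gave 3 to 6 (main value 5). The 4 comparisons across labels gave 8 under all 13 alternatives each. Deviations of same-numbered replicates correlated at -0.02 to 0.04 between lines, so the numbers do not pair the libraries, and with the replicate block 8 members were still called. The log2 ratio of Oasl1 to Oasl2 per kilobase turned to -0.12 in MC010 and -0.21 in MC659 when the longest transcript gave the length, a choice added after seeing the data. Depth limits Oas1a, Oas1g and Oas2 in the lines labelled IRF8 KO, where a few counts carry each value.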
